A study of Mus musculus with 24 samples.

Results

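The comparison set 3 RNA-seq libraries of cultured adult mouse hypothalamic neuronal cells kept in high glucose with mogroside V at dose label 1 (HG1) against 3 libraries of the same cells kept in normal glucose with mogroside V at the same dose label (NG1). These 6 of the 24 libraries of the series were chosen by their sample titles and not by any measured value. Mogroside V, a sweet-tasting glycoside from monk fruit, was therefore present in both groups and the medium was what differed between them. The remaining libraries came from high-glucose and normal-glucose cells without mogroside V (HGC and NGC) and from both media with dose labels 2 and 3 (HG2, HG3, NG2 and NG3). The concentration behind a dose number cannot be read from the labels, though the series design names several, and the glucose concentrations of the media are not given in the sources used here. The labels name a single cell line and do not say whether replicates came from separate cultures, so the p-values measure the spread between libraries, which may be technical. The labels name no batch, and the medium cannot be told apart from a batch that coincided with it.

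Neurons of the hypothalamus sense circulating glucose and help to set feeding and the glucose output of the liver. Inside a cell, glucose carbon enters glycolysis, the hexosamine pathway, which makes the sugar nucleotide used for glycosylation, and, by way of acetyl-CoA, the synthesis of fatty acids and cholesterol. The enzymes of cholesterol synthesis are transcribed together by the factor SREBP2, which works with the factor NF-Y and is released when the endoplasmic reticulum membrane is short of sterol. Genes of the lysosome, the acid compartment that digests lipids, glycans and proteins, are transcribed by the MiT/TFE factors (among them TFEB, TFE3 and MITF), which bind a form of the E-box known as the CLEAR element.

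The 6 libraries were similar in depth, with 3646909 to 3876931 counts assigned to genes in HG1 and 3539760 to 4216850 in NG1. Between 17667 and 17993 gene IDs had a count in HG1 libraries, against 17414 to 18518 in NG1 libraries, and mitochondrial transcripts took 7.33 to 7.70% of gene counts in HG1 and 7.32 to 7.77% in NG1. Of 13 mitochondrially encoded genes, mt-Nd4l, mt-Co2, mt-Co3, mt-Atp6 and mt-Atp8 had no count in the 6 libraries and add nothing to this share. The cause was not tested. Cytosolic ribosomal protein genes took a larger share in HG1, 6.24 to 6.81%, than in NG1, 5.85 to 6.20% (exact permutation test, two-sided p = 0.1, the smallest that 3 against 3 allows). Markers of neurons were low: 9 of 20 passed the filter on low counts, and their summed level was 167 to 172 CPM in HG1 and 176 to 206 CPM in NG1. CPM values are a gene's counts relative to the library size, scaled by TMM, the trimmed-mean factor of edgeR. Markers of fibroblasts and pericytes summed to 8439 to 8619 CPM in HG1 and 7506 to 7789 CPM in NG1, led by the collagen genes Col1a2 and Col1a1. Of the hypothalamic transcription factors 2 of 16 were tested, and Nkx2-1, Nkx2-2, Sim1, Otp, Six6, Hmx3 and Pou3f2 had no count in any of the 6 libraries. Of 14 astrocyte and tanycyte markers 8 were tested, summing to 3793 to 4194 CPM in HG1 and 3449.9 to 3877 CPM in NG1, while Gfap and Aqp4 had no count. Of 11 markers of microglia and macrophages 4 were tested, at 168 to 192 CPM in HG1 and 169.9 to 196 CPM in NG1, while Itgam and Tyrobp had no count. Of 10 oligodendrocyte markers 4 were tested, at 101 to 114 CPM in HG1 and 99.8 to 104 CPM in NG1, while Sox10, Olig1 and Olig2 had no count. Of 9 endothelial markers 2 were tested, at 44.4 to 61.8 CPM in HG1 and 52.8 to 57.5 CPM in NG1, while Cdh5 and Cldn5 had no count. The cells thus carried few of the defining markers of hypothalamic neurons, and they are called here by their label. Among the libraries outside the comparison, NG3 replicate 3 stood apart, at -54.7 on the first principal component against -11.2 to 19.3 for the others. HGC replicate 2 stood at -24.1 on the second component, the lowest of the high-glucose libraries, and results were recomputed without both.

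Across 13281 tested genes, 221 differed between HG1 and NG1 at an adjusted p under 0.05 in edgeR's quasi-likelihood test, which is 1.66% of those tested. Of these, 175 rose in HG1 (1.32%) and 46 fell (0.346%), and 35 rises and 8 falls reached 2-fold. Genes of sterol synthesis, the lysosome, lipid storage and the extracellular matrix were among the rises that held in every fit, while Cox6a2, Troap, Ier5l and Far1 were the 4 falls that did. The median called rise was 0.67 and the median called fall -0.62 on the log2 scale, against a median of -0.01 over all tested genes. The libraries did not overlap in any of the 221, but the same was true of 21.2% of all tested genes (11.3% higher and 9.94% lower in HG1). The smallest called rise was 0.36 and the smallest called fall -0.42, at a median standard error of 0.23 over all tested genes. An unadjusted p under 0.05 was reached by 1709 genes (12.9%), and DESeq2 called 341 (251 rose and 90 fell). These were 3.54% of the 9640 genes to which DESeq2 gave an adjusted p. That number is set by its own filter for each comparison, so the share is not comparable with edgeR's.

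**Figure D1:**
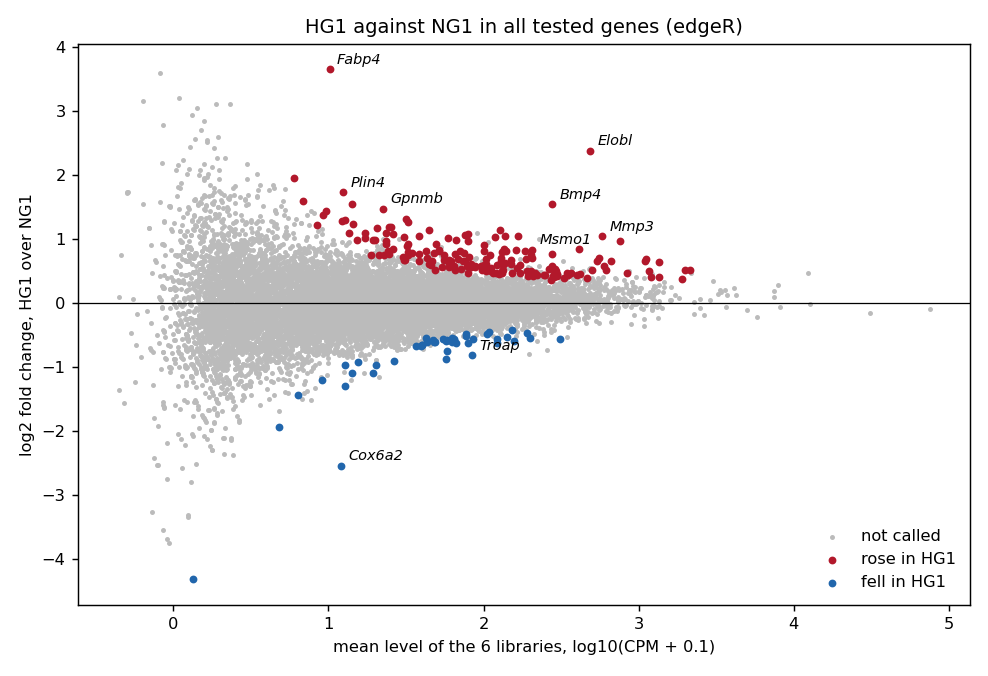
Each point is 1 of the 13281 tested genes, with its mean level over the 6 libraries on the horizontal axis (log10 of CPM with a small offset) and the log2 fold change of HG1 over NG1 on the vertical axis; red points rose, blue points fell and grey points were not called. Fabp4 (3.65) lies highest among the named genes and Cox6a2 (-2.55) lowest, and the called rises (175) outnumber the called falls (46).

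The number of calls depended on single libraries. Leaving out replicate 2 of HG1, written HG1_2, brought it to 65, whereas leaving out HG1_1 gave 141, HG1_3 179, NG1_1 114, NG1_2 117 and NG1_3 110. In all 6 of these fits 52 genes stayed called, 48 that rose and 4 that fell, and the same 52 passed in every alternative run for this comparison. The accounts below rest mainly on these 52. Parentheses give the log2 fold change of HG1 over NG1 ± SE and the edgeR adjusted p. Libraries outside the comparison share the fit and also moved the count, and the cause was not tested. The count was 586 (406 rises and 180 falls) with only the 6 libraries in the fit. Without NG3 replicate 3 and HGC replicate 2 the count was 432 (313 and 119). Where a fit without 1 library ended the call, the parentheses also give the highest adjusted p so reached and the library left out.

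**Figure D2:**
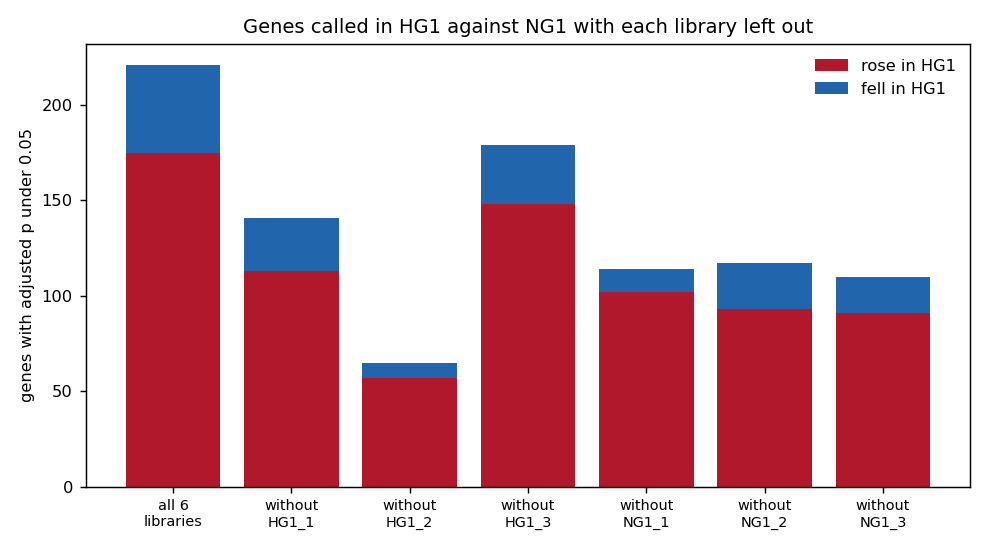
Bars give the number of genes with an edgeR adjusted p under 0.05, with all 6 libraries and with each HG1 and then each NG1 library left out; red is the part that rose in HG1 and blue the part that fell. The full set gives 221 genes and the fit without HG1_2 gives 65.

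Lipid storage genes held the largest rise. Fabp4 encodes a fatty acid carrier best known from adipocytes and macrophages, and it had 19.4, 21.4 and 15.3 CPM in HG1 libraries, against 1.59, 1.12 and 1.65 CPM in NG1 libraries. All HG1 libraries stood far above all NG1 libraries, with a log2 fold change of 3.65 ± 0.47 (SE, edgeR adjusted p = 2.61e-06), or 12.5-fold. Plin4, a perilipin that coats lipid droplets, had 19.4, 20.6 and 17.3 CPM in HG1 libraries, against 4.24, 4.48 and 8.27 CPM in NG1 libraries. The groups were again apart, although NG1_3 was higher than the other NG1 libraries, with a log2 fold change of 1.73 ± 0.33 (SE, edgeR adjusted p = 0.00145). Acot13, a thioesterase that releases fatty acids from acyl-CoA, had 35.7, 49.9 and 48.7 CPM in HG1 libraries, against 19.9, 14.8 and 19.4 CPM in NG1 libraries, and here HG1_1 was the lowest HG1 library yet above every NG1 library (1.31 ± 0.21, edgeR adjusted p = 9.73e-05). Among 11 tested genes of lipid droplets and fatty acid carriers, Fabp4 and Plin4 rose and none fell, against rises in 1.32% of all tested genes. The other 9 did not pass. The list's median log2 change was 0.14, and 9 of its 11 values were positive, against 48.2% of all tested genes. None of 16 genes of fatty acid synthesis passed in edgeR or DESeq2, with 7 at an unadjusted p under 0.05 and a median of 0.14, and 3 rose without NG3 replicate 3 and HGC replicate 2. None of 13 genes of fatty acid oxidation passed in either tool, with 0 at an unadjusted p under 0.05 and a median of 0.07. Of 10 adipocyte markers 3 were tested: Fabp4, which rose, and Pparg and Cebpa, which had negative log2 changes and did not pass. The 10 markers summed to 25.2 to 36.9 CPM in HG1 and 9.42 to 18.7 CPM in NG1. Adipoq, Lep, Cidec and Cfd had no count in the 6 libraries. Far1, which reduces fatty acyl-CoA to the alcohols used in ether lipids, fell: it had 133, 121 and 117 CPM in HG1 libraries, against 201, 172 and 192 CPM in NG1 libraries, all HG1 libraries below all NG1 libraries (-0.60 ± 0.12, edgeR adjusted p = 0.00338).

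**Figure D3:**
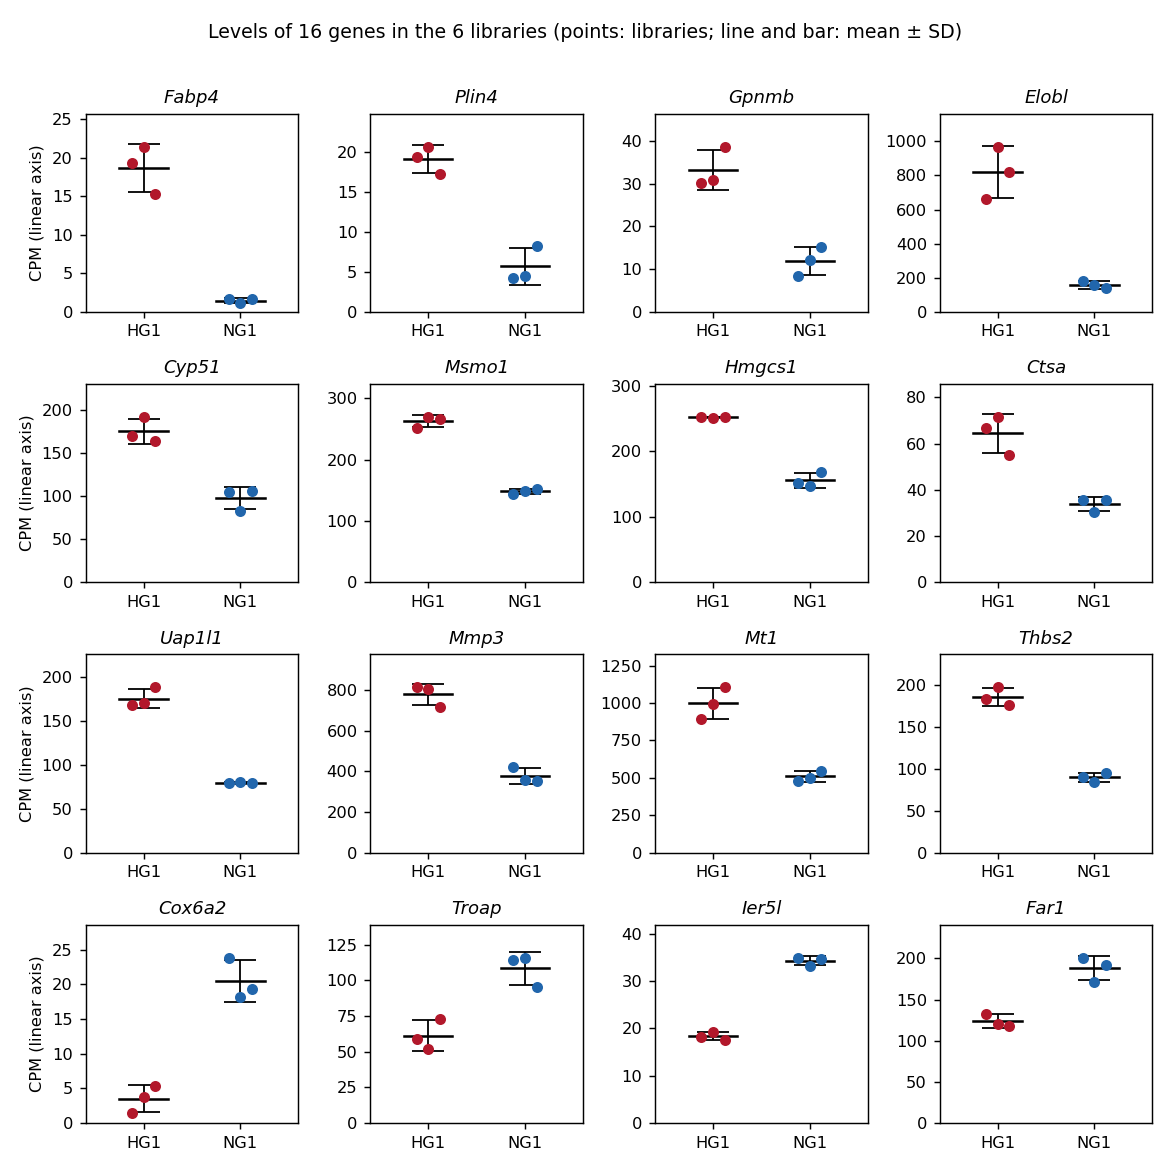
Each panel shows 1 gene, with CPM on a linear axis from 0; red points are the 3 HG1 libraries, blue points the 3 NG1 libraries, and the line and bar give the mean ± SD of each group. In the 12 genes of the upper rows all HG1 points lie above all NG1 points, and in Cox6a2, Troap, Ier5l and Far1 in the bottom row all HG1 points lie below.

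Sterol synthesis was the gene list with the most rises in the main fit, 11 against 10 in the lysosome list. DESeq2 called 12 sterol and 15 lysosome members, and without NG3 replicate 3 and HGC replicate 2 each list had 14 rises. Against rises in 1.32% and falls in 0.346% of all tested genes, 11 of 24 tested genes of cholesterol synthesis and uptake rose in HG1 and none fell. All 24 had a positive log2 change, and the median was 0.65. Their summed level was 2111 to 2206 CPM in HG1 and 1370 to 1456 CPM in NG1. Leaving out HG1_2 reduced the 11 to 7, and the other single omissions gave 9 or 10. The promoters of Msmo1 and Hmgcs1 are shown, the first as a risen sterol gene with 3 NF-Y words and the second as the list's single match to the SREBP word. The windows run from 250 bases before to 50 after the RefSeq start and are from build GRCm38.p6, which is not the build of the counts (GRCm39). Capitals mark CCAAT, the NF-Y word, in Msmo1 and TCACNCCAC, a sterol regulatory element, in Hmgcs1, on either strand.
Msmo1 (chr8:64733529-64733828, GRCm38.p6, strand -): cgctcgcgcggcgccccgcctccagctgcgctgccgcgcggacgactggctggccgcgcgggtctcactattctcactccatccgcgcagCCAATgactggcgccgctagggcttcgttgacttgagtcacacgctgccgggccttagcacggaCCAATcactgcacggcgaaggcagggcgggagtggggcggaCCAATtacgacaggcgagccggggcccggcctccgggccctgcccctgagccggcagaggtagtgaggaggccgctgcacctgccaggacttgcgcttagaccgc
Hmgcs1 (chr13:119690101-119690400, GRCm38.p6, strand +): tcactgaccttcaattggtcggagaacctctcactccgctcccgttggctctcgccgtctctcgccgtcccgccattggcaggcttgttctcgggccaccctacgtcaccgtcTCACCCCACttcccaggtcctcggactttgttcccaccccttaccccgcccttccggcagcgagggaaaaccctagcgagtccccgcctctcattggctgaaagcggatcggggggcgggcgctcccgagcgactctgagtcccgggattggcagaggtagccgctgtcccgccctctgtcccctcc
The CCAAT word occurred in 16 of the 17 list members with a tabled promoter, and in 7 of the 8 that rose, against 41.1% of all 27025 genes in the table (37.4% of its 32851 promoters, all of this length). TCACNCCAC occurred in Hmgcs1 alone among the 17, against 1.44% of all genes, and the words do not overlap in letters. These matches describe the windows and were not tested against the expression change.

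The 11 rises included early, middle and late steps of the pathway, and other steps did not pass, among them Mvk, Mvd, Hsd17b7 and Dhcr7. Hmgcs1, which condenses acetyl-CoA units into HMG-CoA at the entry of the pathway, had 253, 252 and 253 CPM in HG1 libraries, against 151, 147 and 169 CPM in NG1 libraries. The HG1 values were almost equal to each other and all above NG1, with a log2 fold change of 0.70 ± 0.13 (SE, edgeR adjusted p = 7.86e-04). Fdps, which makes farnesyl diphosphate, changed by 0.72 ± 0.15 (edgeR adjusted p = 0.00407, 0.0679 without HG1_2). Sqle, the squalene epoxidase, had 136, 123 and 127 CPM in HG1 libraries, against 77.6, 68.8 and 73.95 CPM in NG1 libraries, with no overlap (0.81 ± 0.12, edgeR adjusted p = 5.87e-05). Lss, the synthase that closes the ring to lanosterol, showed the largest change among the called members, with 33.5, 26.5 and 35.3 CPM in HG1 libraries, against 13.8, 13.1 and 17.7 CPM in NG1 libraries (1.09 ± 0.22, edgeR adjusted p = 0.00320).

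Of the enzymes that act after lanosterol Cyp51, Msmo1, Nsdhl, Ebp and Sc5d rose. Cyp51, the lanosterol demethylase, had 169, 191 and 164 CPM in HG1 libraries, against 104, 82.8 and 106 CPM in NG1 libraries. HG1_2 was the highest and NG1_2 the lowest library, and the groups were well apart (0.84 ± 0.12, edgeR adjusted p = 1.15e-05). Msmo1, the methylsterol oxidase, had 252, 269.6 and 267 CPM in HG1 libraries, against 144, 149 and 151 CPM in NG1 libraries, with little spread in either group (0.83 ± 0.11, edgeR adjusted p = 3.20e-06). Nsdhl and Ebp, a sterol dehydrogenase and a sterol isomerase, rose by 0.81 ± 0.17 and 0.81 ± 0.16 (edgeR adjusted p = 0.00462 and 0.00338). Sc5d, a sterol desaturase, rose by 0.61 ± 0.13 (edgeR adjusted p = 0.00462, 0.0580 without HG1_2). Acat2, a cytosolic thiolase, and Stard4, a sterol carrier, had the weakest calls of the list, 0.51 ± 0.13 and 0.55 ± 0.15 (edgeR adjusted p = 0.0374 and 0.0449), and each was lost in 5 of the 6 fits without 1 library. Insig1, which holds SREBP2 in the endoplasmic reticulum, did not pass (0.83 ± 0.27, edgeR adjusted p = 0.123), nor did Srebf2, the gene of SREBP2 itself (0.11 ± 0.19, 0.885). None of the 9 tested genes of cholesterol efflux and lysosomal export passed in edgeR, at a median of 0.19, with 3 at an unadjusted p under 0.05 and 1 called by DESeq2.

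The lysosome list had 10 rises and 1 fall among 30 tested members, against rises in 1.32% and falls in 0.346% of all tested genes. Its median log2 change was 0.35, and 26 values were positive. Its summed level was 7130 to 8197 CPM in HG1 and 5623 to 5780 CPM in NG1. The count of rises was 4 without HG1_2, 5 without NG1_2 or NG1_3 and 6 without NG1_1. The promoter of Ctsa is shown because it holds the CLEAR word GTCACGTGA (capitals, either strand) at 2 places, and it is from RefSeq on GRCm38.p6, like those above.
Ctsa (chr2:164833523-164833822, GRCm38.p6, strand +): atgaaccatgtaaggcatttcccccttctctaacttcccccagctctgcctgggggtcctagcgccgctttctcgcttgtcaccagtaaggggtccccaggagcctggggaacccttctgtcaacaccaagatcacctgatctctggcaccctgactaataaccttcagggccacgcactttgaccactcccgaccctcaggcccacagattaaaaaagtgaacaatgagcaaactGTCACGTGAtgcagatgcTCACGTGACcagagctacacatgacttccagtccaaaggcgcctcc
GTCACGTGA occurred in 5 of the 24 list members with a tabled promoter (Atp6v0d1, Ctsa, Ctsd, Gla and Mcoln1), against 0.895% of all genes in the table. The plain E-box CACGTG, which the CLEAR word contains, occurred in 9 of the 24, against 8.09% of all genes. Of the 9 risen members with a tabled promoter, 2 held the CLEAR word and 3 the E-box.

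Gpnmb, a lysosomal and melanosomal glycoprotein known as a target of MITF, had 30.1, 30.8 and 38.7 CPM in HG1 libraries, against 8.48, 12.03 and 15.1 CPM in NG1 libraries. HG1_3 was the highest and NG1_1 the lowest library, and the groups did not overlap (1.47 ± 0.23, edgeR adjusted p = 6.18e-05). Ctsa, the protective protein that stabilises lysosomal neuraminidase and galactosidase, had 66.9, 71.6 and 55.1 CPM in HG1 libraries, against 35.8, 30.2 and 35.7 CPM in NG1 libraries (0.93 ± 0.16, edgeR adjusted p = 4.57e-04). Hexa, a hexosaminidase subunit that digests gangliosides, had 125, 151 and 118 CPM in HG1 libraries, against 58.8, 74.4 and 76.5 CPM in NG1 libraries (0.91 ± 0.14, edgeR adjusted p = 4.59e-05). In each of these genes the lowest HG1 library exceeded the highest NG1 library by a wide margin. Grn, the progranulin gene, rose by 0.76 ± 0.12 (edgeR adjusted p = 9.73e-05). The remaining 6 rises of the list each lost the call in at least 2 of the fits without 1 library. They were Neu1, a sialidase (1.07 ± 0.25, edgeR adjusted p = 0.0164, 0.0945 without NG1_3), Lamp1, a lysosomal membrane protein (0.70 ± 0.15, 0.0131, 0.121 without HG1_2), Atp6v0d1, a proton pump subunit (0.59 ± 0.15, 0.0280, 0.108 without HG1_1), Cd63, a tetraspanin (0.52 ± 0.11, 0.00462, 0.0604 without NG1_3), Map1lc3b, an autophagosome protein (0.47 ± 0.12, 0.0218, 0.196 without HG1_2), and Ctsb, a cathepsin (0.41 ± 0.11, 0.0421, 0.321 without HG1_2). The member that fell was Tfe3, which encodes one of the transcription factors of these genes, with 41.5, 35.9 and 38.1 CPM in HG1 libraries, against 53.3, 64.3 and 60.01 CPM in NG1 libraries (-0.62 ± 0.15, edgeR adjusted p = 0.0199, 0.152 without HG1_2).

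Several further lysosomal and endosomal genes, outside the list and picked after their values were seen, were among the 52 called in every fit. Dpp7, a dipeptidyl peptidase of lysosomes and vesicles, had 55.9, 61.4 and 66.5 CPM in HG1 libraries, against 30.5, 24.1 and 28.4 CPM in NG1 libraries (1.15 ± 0.16, edgeR adjusted p = 1.56e-05). Scpep1, a serine carboxypeptidase, and Aga, the glycosylasparaginase that digests glycoproteins, rose by 0.65 ± 0.11 and 0.63 ± 0.13 (edgeR adjusted p = 2.32e-04 and 0.00424). Of the proton pump that acidifies the lysosome, the accessory subunit Atp6ap2 and the catalytic-sector subunit Atp6v1b2 rose by 1.05 ± 0.14 and 0.71 ± 0.12 (edgeR adjusted p = 2.61e-06 and 3.85e-04). Mfsd1, a lysosomal transporter, and Vps26a, a retromer subunit that returns receptors from endosomes, rose by 0.85 ± 0.11 and 0.75 ± 0.14 (edgeR adjusted p = 2.06e-06 and 0.00115). Tfrc, the transferrin receptor that carries iron into endosomes, had 108, 116 and 82.9 CPM in HG1 libraries, against 43.98, 58.5 and 45.1 CPM in NG1 libraries (1.06 ± 0.14, edgeR adjusted p = 5.77e-06).

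Genes of amino sugar metabolism showed 3 clear rises. Uap1l1, which resembles Uap1, the last enzyme on the hexosamine route to UDP-N-acetylglucosamine, had 168, 170.5 and 189 CPM in HG1 libraries, against 79.7, 80.6 and 79.1 CPM in NG1 libraries. The NG1 values were almost equal and lay far below HG1, with a log2 fold change of 1.14 ± 0.14 (SE, edgeR adjusted p = 8.35e-07). Renbp, which interconverts N-acetylglucosamine and N-acetylmannosamine, and Amdhd2, which deacetylates N-acetylglucosamine 6-phosphate, rose by 1.04 ± 0.17 and 1.04 ± 0.20 (edgeR adjusted p = 2.25e-04 and 0.00258). Renbp and Amdhd2 were picked after their values were seen. Uap1l1 was the single riser among 10 tested genes of the hexosamine list, whose median was 0.07, while 1.32% of all tested genes rose.

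Genes of glucose handling itself were called in the glycolysis and lactate list. Of its 22 tested members 4 rose and none fell, against rises in 1.32% of all tested genes. In this list 18 of 22 were positive and 9 had an unadjusted p under 0.05. Its median was 0.24, and no call remained without HG1_2. Hk2, the hexokinase that traps glucose in the cell, had 100.4, 82.01 and 89.04 CPM in HG1 libraries, against 43.5, 69.1 and 60.5 CPM in NG1 libraries (0.65 ± 0.16, edgeR adjusted p = 0.0260, 0.219 without NG1_1). Aldoa, the aldolase, rose by 0.53 ± 0.11 (edgeR adjusted p = 0.00582, 0.0686 without HG1_2), Ldha, a lactate dehydrogenase subunit, by 0.44 ± 0.12 (0.0394, 0.196 without HG1_2), and Pdk1, which restrains the conversion of pyruvate to acetyl-CoA in mitochondria, by 1.22 ± 0.32 (0.0391, 0.151 without NG1_3). Txnip, the thioredoxin-interacting protein whose gene is known to be switched on by glucose, had 117, 112 and 104 CPM in HG1 libraries, against 134, 165 and 120.3 CPM in NG1 libraries. Its HG1 values were below every NG1 value, at -0.33 ± 0.22, and did not pass (edgeR adjusted p = 0.591). The related arrestin Arrdc4 (0.42 ± 0.34), the glucose transporter Slc2a1 (0.50 ± 0.18), the insulin receptor Insr (-0.16 ± 0.23) and its substrate Irs2 (0.31 ± 0.24) did not pass either (edgeR adjusted p = 0.673, 0.159, 0.848 and 0.651). Of the carbohydrate response list none of 10 tested genes passed in edgeR or DESeq2, with 2 at an unadjusted p under 0.05. Of the insulin, IGF and leptin list none of 22 passed in edgeR, with 4 at an unadjusted p under 0.05 and 1 called by DESeq2. Of 19 genes for feeding and sweet taste 1 was tested, the neuropeptide Y receptor Npy1r, with 5.53, 6.43 and 3.34 CPM in HG1 libraries, against 1.85, 2.24 and 0.709 CPM in NG1 libraries, and it did not pass (1.68 ± 0.63, edgeR adjusted p = 0.189).

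Secreted matrix proteins were among the called genes. Of 16 tested proteases and inhibitors 3 rose and none fell, in every fit without 1 library, while the list's median was 0.07. Over all tested genes 1.32% rose and 0.346% fell. Mmp3, stromelysin 1, had 815, 808 and 719 CPM in HG1 libraries, against 423, 359.7 and 353 CPM in NG1 libraries, with both groups narrow and apart (1.04 ± 0.13, edgeR adjusted p = 8.35e-07). Mmp13, collagenase 3, rose by 0.81 ± 0.13 (edgeR adjusted p = 1.98e-04). Of 27 collagens and matrix proteins 3 rose and 1 fell, with a median of 0.12. Thbs2, a thrombospondin, had 183, 197 and 176 CPM in HG1 libraries, against 90.6, 83.6 and 94.7 CPM in NG1 libraries (1.05 ± 0.12, edgeR adjusted p = 2.80e-07). Lox, the lysyl oxidase that crosslinks collagen, and Postn, periostin, rose by 0.68 ± 0.10 and 0.97 ± 0.15 (edgeR adjusted p = 2.60e-05 and 3.42e-05). Col6a1, a collagen VI chain, fell (-0.49 ± 0.12, edgeR adjusted p = 0.0198, 0.200 without HG1_2). Summed fibroblast and pericyte markers were also higher in HG1 (8439 to 8619 CPM) than in NG1 (7506 to 7789 CPM), and their part in these rises was not tested. None of their 10 tested members passed in edgeR or DESeq2, with 1 at an unadjusted p under 0.05. In a bulk library, more cells of a kind and more RNA per cell cannot be told apart.

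Some secreted and signalling proteins were also called, of which Grem1, Nkd2, Rspo2 and Ccn5 belong to no list used here and were picked after their values were seen. For the lists counted below, 1.32% of all tested genes rose. Grem1, an antagonist of BMPs, had 156, 161 and 158 CPM in HG1 libraries, against 75.2, 79.2 and 77.5 CPM in NG1 libraries, the libraries of each group within a few CPM of one another (1.03 ± 0.12, edgeR adjusted p = 2.80e-07). Bmp4, a BMP ligand, had 348, 494 and 387 CPM in HG1 libraries, against 124, 157 and 142 CPM in NG1 libraries. HG1_2 was the highest library, and every HG1 library lay above every NG1 library. The change was 1.54 ± 0.31 (edgeR adjusted p = 0.0185), and the call was lost without HG1_2 (0.109) and likewise without NG1_1 (0.0943), NG1_2 (0.0590) or NG1_3 (0.0747). Wnt16, a Wnt ligand, had 8.57, 11.3 and 10.6 CPM in HG1 libraries, against 5.56, 1.12 and 3.31 CPM in NG1 libraries, with a wide spread in NG1 (1.59 ± 0.39, edgeR adjusted p = 0.0226, 0.159 without NG1_2). Nkd2, an inhibitor inside the Wnt pathway, Rspo2, which amplifies Wnt signals, and Ccn5, a secreted CCN protein, held in every fit, at 0.98 ± 0.14, 0.92 ± 0.18 and 1.02 ± 0.14 (edgeR adjusted p = 1.60e-05, 0.00168 and 7.50e-06). Tgfb2, a TGF-beta ligand, rose by 0.88 ± 0.18 (edgeR adjusted p = 0.00424, 0.0737 without HG1_2), and with Bmp4 it made 2 rises among 17 tested genes of the TGF-beta list. The chemokine Cxcl12 had 1282, 1406 and 1362 CPM in HG1 libraries, against 932, 815 and 825 CPM in NG1 libraries and rose in every fit (0.66 ± 0.09, edgeR adjusted p = 1.45e-05), and the chemokine Ccl7 rose by 0.81 ± 0.19 (edgeR adjusted p = 0.0142, 0.180 without HG1_2), the 2 rises among 18 tested inflammatory mediators. Dusp3, a phosphatase that acts on MAP kinases, had 18.5, 21.98 and 22.5 CPM in HG1 libraries, against 7.15, 7.27 and 7.09 CPM in NG1 libraries, the HG1 libraries all well above a narrow NG1 group (1.55 ± 0.26, edgeR adjusted p = 1.82e-04).

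Calls among transcription factors and stress genes differed by list, where 1.32% of all tested genes rose. Bhlhe40, a repressor in the circadian clock, had 47.3, 46.1 and 43.7 CPM in HG1 libraries, against 17.8, 18.5 and 20.6 CPM in NG1 libraries, with narrow groups (1.27 ± 0.21, edgeR adjusted p = 2.51e-04), and its paralog Bhlhe41 rose by 1.16 ± 0.27 (edgeR adjusted p = 0.0121, 0.243 without HG1_2). These were the 2 rises among 16 tested clock genes. Plagl1, an imprinted zinc finger factor, rose by 1.19 ± 0.20 (edgeR adjusted p = 3.21e-04). Mt1, a metallothionein that binds zinc, had 893, 994 and 1106 CPM in HG1 libraries, against 482, 499 and 549 CPM in NG1 libraries, with no overlap (0.97 ± 0.11, edgeR adjusted p = 2.80e-07), while Mt2 did not pass (0.48 ± 0.14, 0.0666). Of 22 tested ER chaperones Hsp90b1 and Hspa5 rose, by 0.41 ± 0.10 and 0.37 ± 0.10 (edgeR adjusted p = 0.0200 and 0.0426), and neither call remained without HG1_2, NG1_2 or NG1_3. Ddit3, the stress factor CHOP, was the single rise among 21 tested genes of the integrated stress response (1.19 ± 0.23, edgeR adjusted p = 0.00266, 0.0686 without HG1_2), and Atf4, which drives that response, did not pass (0.66 ± 0.19, 0.0966). Of 20 antioxidant genes none passed in edgeR, 6 had an unadjusted p under 0.05 and DESeq2 called 1. Hmox1, the heme oxygenase, was at 0.91 ± 0.28 and the quinone reductase Nqo1 at -0.66 ± 0.19 (edgeR adjusted p = 0.104 and 0.0571).

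Among the other large rises was Elobl, an elongin B-like gene, with 664, 969.7 and 821 CPM in HG1 libraries, against 180.4, 156 and 136 CPM in NG1 libraries. HG1 values were far above NG1 values (2.38 ± 0.14, edgeR adjusted p = 1.45e-15), but the gene is named as a relative of elongin B, Elob, and reads may be split between similar copies. Elob itself had 505, 588 and 594 CPM in HG1 libraries, against 477, 462 and 452 CPM in NG1 libraries and did not pass (0.28 ± 0.10, edgeR adjusted p = 0.189). With trends on GC content and length removed it passed, at 0.42 (edgeR adjusted p = 0.0116). The rule also named Slc38a7, an amino acid transporter (1.44 ± 0.35, edgeR adjusted p = 0.0216, 0.144 without HG1_3), Nlrp2 (1.30 ± 0.27, 0.00489, 0.0610 without NG1_2) and the scaffold gene Magi2 (1.27 ± 0.29, 0.0131, 0.109 without NG1_2). Slc7a2, a transporter of cationic amino acids (0.50 ± 0.12, 0.0172, 0.180 without HG1_2), and the p53 target Trp53inp1 (0.98 ± 0.24, 0.0238, 0.195 without NG1_3) were the single rises of their lists of 13 amino acid transporters and 14 p53 targets. Rises made up 1.32% of all tested genes.

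**Figure D4:**
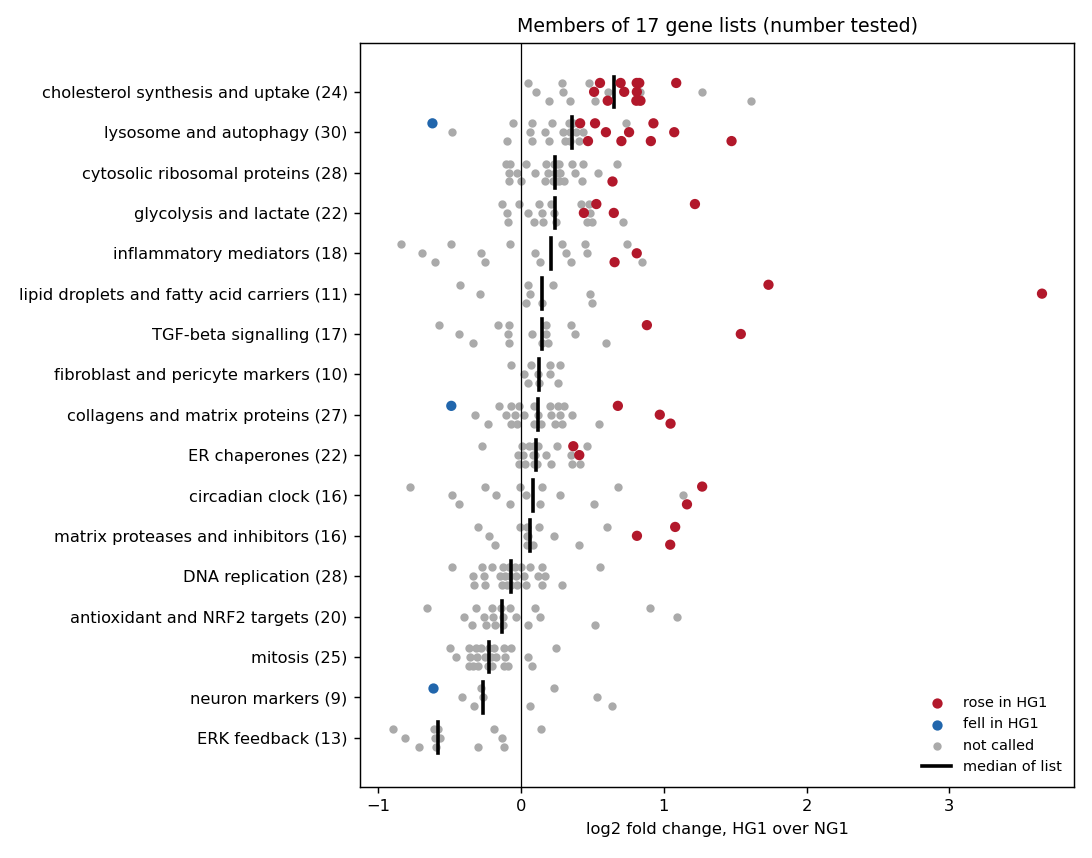
Each row is a gene list with its number of tested members, and each point is a member placed at its log2 fold change of HG1 over NG1; red points rose, blue points fell, grey points were not called, and the black bar is the list's median. The sterol list has its median at 0.65 with all 24 points right of 0, and the ERK feedback list has its median at -0.58 with no called member.

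The largest fall was in Cox6a2, the heart and muscle isoform of a subunit of cytochrome c oxidase, which had 1.38, 3.75 and 5.29 CPM in HG1 libraries, against 23.8, 18.2 and 19.4 CPM in NG1 libraries. Every HG1 library was far below every NG1 library (-2.55 ± 0.38, edgeR adjusted p = 6.51e-05). It was the single call among 15 tested cytochrome c oxidase genes, whose median was 0.16, while 0.346% of all tested genes fell. The list members mt-Co2 and mt-Co3 had no count in the 6 libraries. Troap, whose product acts at the mitotic spindle, had 58.6, 51.99 and 72.9 CPM in HG1 libraries, against 114, 116 and 94.98 CPM in NG1 libraries, with HG1_3 nearest to NG1 but below it (-0.82 ± 0.15, edgeR adjusted p = 8.56e-04). Ier5l, an immediate-early-like gene, had 18.3, 19.3 and 17.5 CPM in HG1 libraries, against 34.97, 33.3 and 34.7 CPM in NG1 libraries, both groups within a few CPM (-0.90 ± 0.20, edgeR adjusted p = 0.00883). Ccnd1, the cyclin that drives entry into the cell cycle, had 43.4, 39.7 and 38.1 CPM in HG1 libraries, against 67.8, 82.8 and 72.1 CPM in NG1 libraries (-0.88 ± 0.20, edgeR adjusted p = 0.0141, 0.105 without HG1_2).

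The other large falls lost their call in at least 1 fit without 1 library. Il1r1, the interleukin 1 receptor, had 4.42, 10.2 and 7.23 CPM in HG1 libraries, against 17.5, 19.02 and 17.7 CPM in NG1 libraries (-1.30 ± 0.32, edgeR adjusted p = 0.0201, 0.140 without HG1_1). Ptger4, a prostaglandin E receptor, had 13.8, 15.01 and 12.2 CPM in HG1 libraries, against 29.7, 28.8 and 22.2 CPM in NG1 libraries (-0.97 ± 0.22, edgeR adjusted p = 0.0131, 0.0922 without NG1_1). In both genes every HG1 library lay below every NG1 library. Falls were also called in the transcriptional repressor gene Zfp703 (-0.75 ± 0.16, edgeR adjusted p = 0.00487, 0.0572 without HG1_2), the deadenylase subunit gene Pan2 (-0.68 ± 0.15, 0.0117, 0.0821 without NG1_2) and the kinase gene Camk1d (-0.92 ± 0.25, 0.0491, 0.237 without HG1_1). Mtfr2, a mitochondrial fission regulator (-0.97 ± 0.26, 0.0388, 0.143 without NG1_1), the myotubularin relative Sbf1 (-0.67 ± 0.18, 0.0426, 0.243 without NG1_2) and Ppp1ccb (-1.10 ± 0.28, 0.0281, 0.203 without NG1_3) completed the 12 largest falls. Map2, a dendritic microtubule protein, was the single call among 9 tested neuron markers (-0.62 ± 0.16, edgeR adjusted p = 0.0263, 0.258 without NG1_1), and Nes, nestin, the single call among 8 astrocyte and tanycyte markers (-0.49 ± 0.13, 0.0449, 0.201 without HG1_2). Falls made up 0.346% of all tested genes.

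Called falls had a higher transcript GC content (median 51.7%) than called rises (48.5%) and all tested genes (48.9%). The HG1 libraries also carried a trend on GC content: the mean deviation of the 10% of genes richest in GC minus that of the 10% poorest was -0.18 to -0.04 log2 in HG1 and -0.04 to 0.04 in NG1 (exact permutation test, two-sided p = 0.1, the smallest possible). With each library's trends on GC content and length removed, 180 genes rose and 52 fell, among them 150 of the 175 rises and 36 of the 46 falls. Cox6a2, Troap, Ier5l and Far1 stayed called, and of the genes named here Acat2, Hspa5, Ldha, Camk1d, Sbf1 and Nes did not. In the same fit Elob, Mt2 and Col1a1 were called as rises and Nqo1 and Ccnb1 as falls.

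The ERK feedback and mitosis lists had mostly negative values. Over all tested genes 48.2% were positive, 9.94% were lower in HG1 without overlap and 12.9% had an unadjusted p under 0.05. Of 13 tested ERK feedback genes 12 were negative, at a median of -0.58. None passed in edgeR or DESeq2, and 5 had an unadjusted p under 0.05, each of them negative. Dusp6, the phosphatase that switches ERK off, had 41.8, 47.4 and 50.9 CPM in HG1 libraries, against 76.04, 77.5 and 60.2 CPM in NG1 libraries, with no overlap (-0.61 ± 0.18, edgeR adjusted p = 0.0746), and the factor Etv5 was at -0.81 ± 0.25 (0.0825). Of 25 mitosis genes 22 were negative, at a median of -0.22, with 14 lower in HG1 without overlap. None passed in edgeR, 9 had an unadjusted p under 0.05, each of them negative, and DESeq2 called 1. Their lowest adjusted p belonged to Bub1b, a spindle checkpoint kinase (-0.50 ± 0.15, edgeR adjusted p = 0.0746), followed by cyclin B1, Ccnb1 (-0.37 ± 0.11, 0.0944). The immediate early gene Egr1 (-0.74 ± 0.24) and Ccn1 (-0.80 ± 0.36), a target of YAP, did not pass (edgeR adjusted p = 0.159 and 0.366). Their lists were balanced, with 13 of 24 immediate early genes and 7 of 14 YAP targets negative, at medians of -0.05 and 0.01, and of 28 DNA replication genes 19 were negative, at a median of -0.07. Without NG3 replicate 3 and HGC replicate 2, 2 members each of the mitosis, immediate early and YAP lists were called as falls, among them Bub1b and Egr1.

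The median change of cytosolic ribosomal proteins was positive at dose label 1 and negative in the other libraries. Of 28 tested members 23 were positive in HG1 against NG1, at a median of 0.24, and Rpl4 rose, with 1464, 2001 and 1455 CPM in HG1 libraries, against 1082, 1092 and 995 CPM in NG1 libraries (0.63 ± 0.13, edgeR adjusted p = 0.00556, 0.121 without HG1_2). HG1_2 was well above the other HG1 libraries. The medians of the same list were -0.12 in HGC against NGC and -0.14 over dose labels 2 and 3, and in the controls none of the 28 passed in edgeR or DESeq2, with 0 at an unadjusted p under 0.05. Over dose labels 2 and 3, 1 of the 28 rose and 1 fell. In HG1 against NG1 the count at an unadjusted p under 0.05 was 11, all positive, while 12.9% of all tested genes reached that p and 1.32% were called as rises. Rpl17, a ribosomal protein gene outside the list, had 627, 842 and 689 CPM in HG1 libraries, against 467, 551 and 426 CPM in NG1 libraries (0.58 ± 0.12, edgeR adjusted p = 0.00458, 0.122 without HG1_2), against -0.23 ± 0.12 in HGC against NGC. Many ribosomal protein genes have processed pseudogenes, so their counts are uncertain.

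The medium difference was also measured in libraries that HG1 and NG1 do not share. In HGC against NGC 303 genes were called (2.28%; 1.89% rose and 0.392% fell), and over dose labels 2 and 3 together 566 (4.26%; 2.62% rose and 1.64% fell). Of the 175 genes that rose in HG1, 162 (92.6%) had the same sign in HGC against NGC and 87 were called there, with a median log2 change of 0.56 against 0.67 in HG1. Over dose labels 2 and 3, 168 (96%) had the same sign and 106 were called, at a median of 0.43. Of the 46 falls, 36 (78.3%) had the same sign in the controls and 11 were called, at a median of -0.29 against -0.62 in HG1, and 41 (89.1%) and 17 over dose labels 2 and 3. These genes were chosen by their change in HG1 against NG1, which by itself favours smaller medians elsewhere. Genes chosen in HGC against NGC went the other way. The 251 that rose there had a median of 0.76 there and 0.44 in HG1 against NG1, and the 52 that fell -0.72 and -0.33. Without NG3 replicate 3 and HGC replicate 2, 160 of the 175 rises shared the sign of the controls and 85 were called there, and over dose labels 2 and 3 the figures were 168 and 115. Of the 46 falls, 35 shared the sign of the controls and 7 were called, and 40 and 19 over dose labels 2 and 3. Over all tested genes the sign was shared by 57.2% with the controls and by 60.2% with dose labels 2 and 3. In all 3 comparisons 80 genes were called in the same direction, 74 rises and 6 falls, and 80 others (56 rises and 24 falls) were called in HG1 against NG1 alone, which does not show that they differ between the comparisons.

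**Figure D5:**
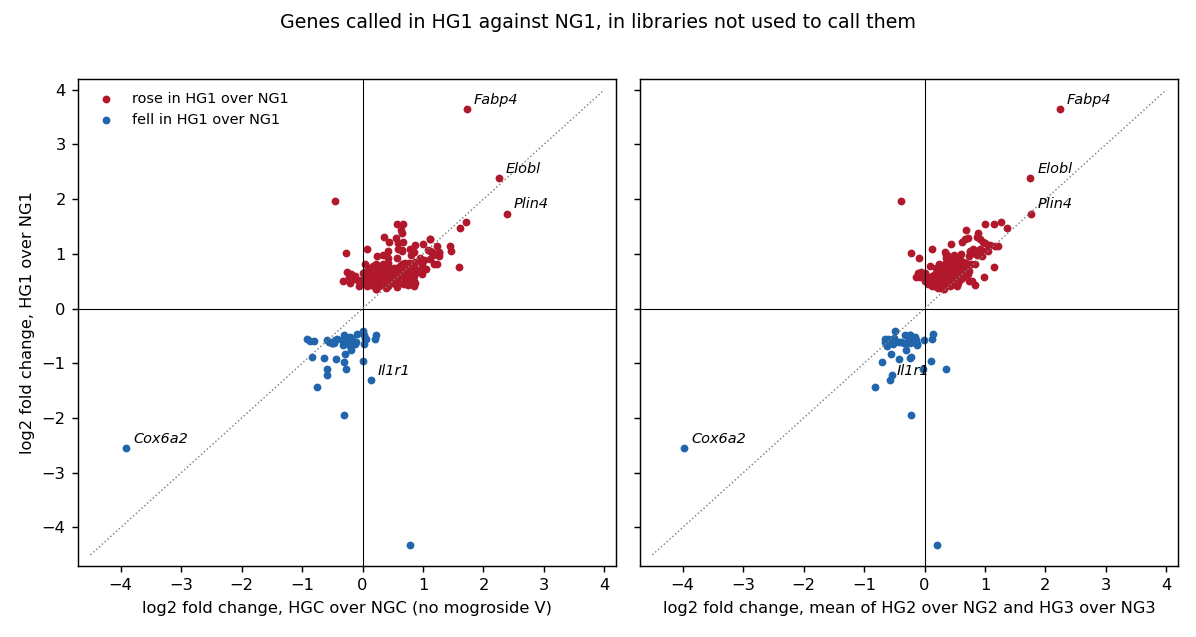
Each point is a gene called in HG1 against NG1, red where it rose and blue where it fell, with its log2 fold change there on the vertical axis and that in other libraries on the horizontal axis (left, HGC over NGC; right, the mean of dose labels 2 and 3); the dotted line marks equal values. Of the 175 red points 162 lie right of 0 in the left panel and 168 in the right panel, and Fabp4 lies above the dotted line in both.

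The sterol list had rises in each comparison, with 11 members called and a median of 0.65 in HG1 against NG1, 15 called and 0.70 in HGC against NGC, and 14 called and 0.51 over dose labels 2 and 3. The lysosome list had medians of 0.35, 0.60 and 0.34 in the same order, with 10, 17 and 14 rises. Without NG3 replicate 3 and HGC replicate 2 the sterol list had 14, 14 and 17 rises in this order, and the lysosome list 14, 16 and 15. Cox6a2 fell in each, with log2 changes of -2.55 ± 0.38 in HG1 against NG1, -3.92 ± 0.42 in the controls and -3.97 ± 0.35 over dose labels 2 and 3. Fabp4 rose in each, with log2 changes of 3.65 ± 0.47, 1.72 ± 0.43 and 2.24 ± 0.34.

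The test of the difference between HG1 minus NG1 and HGC minus NGC called no gene in edgeR (0% of 13281; lowest adjusted p = 0.131). An unadjusted p under 0.05 was reached by 981 genes (7.39%), and DESeq2 called 29 (0.948% of the 3060 to which it gave an adjusted p), 23 of them higher at dose label 1. The same test against dose labels 2 and 3 also called no gene in edgeR (0%; lowest adjusted p = 0.332), with 974 genes at an unadjusted p under 0.05 and none called by DESeq2. The difference was 1.92 (95% interval 0.58 to 3.27) for Fabp4, 1.37 (95% interval 0.13 to 2.61) for Cox6a2, -0.23 (95% interval -0.59 to 0.13) for Hmgcs1, 0.06 (95% interval -0.25 to 0.37) for Msmo1 and 0.13 (95% interval -0.25 to 0.50) for Elobl, in log2 units and not adjusted for the number of genes. The lowest p-values of the first test belonged to Cyp4v3, a cytochrome P450 of fatty acids, at -1.97 (95% interval -2.78 to -1.17), Rpl17 at 0.81 (95% interval 0.46 to 1.15), the RNA-binding gene Celf4 at 0.82 (95% interval 0.46 to 1.18), the tetraspanin Cd9 at 0.93 (95% interval 0.52 to 1.33) and Dda1 at -1.002 (95% interval -1.45 to -0.56). Cd9 had 184, 228 and 142 CPM in HG1 libraries, against 119.8, 131 and 95.9 CPM in NG1 libraries and was called higher in HG1 (0.67 ± 0.14, edgeR adjusted p = 0.00489, 0.157 without HG1_2), against -0.25 ± 0.14 in the controls, where it did not pass.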

How the data were processed

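Libraries of polyadenylated RNA were made with the VAHTS Universal V8 kit after PureLink extraction and DNase treatment, per the labels' protocols. For every library the authors deposited a table of raw read counts by gene ID. Per the submitters' processing notes, FastQC 0.11.9, STAR 2.7.5c, HTSeq 1.99.2, DESeq2 and build GRCm39 were used. The strand setting is not given in the sources, and overlapping genes on opposite strands may share reads. Each file lists 56941 gene IDs and 5 summary lines that name no gene, and only the gene IDs entered library sizes and tests. Reads outside genes took 15.7 to 19.2% of HG1 reads and 17.6 to 20.6% of NG1 reads. Reads without a unique alignment took 16.9 to 17.7% of HG1 reads and 16.8 to 17.2% of NG1 reads. In HG1_2 the reads without a unique alignment (17.7%) exceeded those outside genes (15.7%). A symbol was matched to 51948 IDs with 91.8% of the gene counts.

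The group of each library was read from its title, with NG and HG as normal and high glucose, C as control and 1 to 3 as dose labels. The files of HG2 replicate 3 and HG3 replicate 2 were identical and both were left out, so 22 libraries shared 1 fit, with n = 2 in HG2 and HG3. Counts were tested with edgeR 4.0.16 in R 4.3.3 (TMM factors, default filter on low counts over the 8 groups, which kept 13281 genes and removed 43660 IDs, group means as the design, robust quasi-likelihood F test). Residual degrees of freedom were 14 and the common biological coefficient of variation was 0.149. Benjamini-Hochberg adjustment of p-values ran over all tested genes of a comparison, with a threshold of 0.05. Gene counts of 3539760 to 4216850 per library set the precision, and standard errors cover the spread between libraries as well as counting error.

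The 6 libraries follow from their titles. That this comparison was taken up, the 44 gene lists and the motifs were chosen with earlier results of these data known. Named genes are, among called genes with a symbol, a mean of 5 CPM or more in either group and groups that do not overlap, the 12 largest rises and the 12 largest falls, predicted genes and pseudogenes left out, then the lowest p-values of each list, 4 members at most, a set of glucose, lipid and stress genes, and the 5 lowest p-values of each test of a difference between comparisons. From these the text gives the ones that carry each account, and genes named outside the rule were chosen after their values were seen. Some members of the lists are counted but not reported here by name. No set test was run. Lists are given by counts and medians. Alternatives were DESeq2 1.42.0, RLE factors, no filter, only the libraries of the comparison, the replicate number as a block, other treatments of the identical file, no NG3 replicate 3 and HGC replicate 2 (which stand apart on principal components), each library left out in turn and, added after seeing the data, removal of each library's trends on transcript GC content and length. The fit was tested on simulated data. Promoter windows are from RefSeq on GRCm38.p6, matched by symbol.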

Additional observations from a re-analysis of the deposited data

How the results depend on the processing

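For HG1 against NG1 the 221 calls became 341 with DESeq2 (251 rises and 90 falls), 586 with only the 6 libraries in the fit (406 and 180), which included all 175 rises and 45 of the 46 falls, and 432 without NG3 replicate 3 and HGC replicate 2 (313 and 119). Leaving out 1 of the 6 libraries gave 65 to 179 calls. RLE factors, no filter, the treatments of the identical file and the removal of GC and length trends gave 220 to 328. For the difference from HGC minus NGC, with 0 calls, DESeq2 gave 29, no filter 35 and only the 12 libraries 12, and leaving out 1 library gave 0 to 3. For the difference from dose labels 2 and 3, with 0 calls, no filter gave 32, and leaving out 1 library gave 0 to 1. HGC against NGC had 303 calls, 163 to 258 without 1 library and 279 without NG3 replicate 3 and HGC replicate 2. The mean of HG2-NG2 and HG3-NG3 differences had 566 calls, 320 with only its libraries, 1247 with all 24 files, 767 without NG3 replicate 3 and HGC replicate 2 and 278 to 683 without 1 library. The cause of these differences was not tested. Of 115 genes tested by name, none changed direction under any setting; 43 lost the call in at least 1 fit without an HG1 or NG1 library, and under the other settings 6 lost it and 13 gained it.

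With the replicate number as a block 249 genes were called in HG1 against NG1 (192 rises and 57 falls), including 175 of the 175 rises and 44 of the 46 falls, and 0 for the difference from HGC minus NGC. Libraries with the same number did not deviate together across genes: their correlations were -0.03, 0.03 and 0.03. No label pairs them, and these correlations cannot exclude a pairing with a small effect or an effect on few genes. Of the genes named, Camk1d lost its call under the block (edgeR adjusted p = 0.0519).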

Other observations

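Over all 79 tested cytosolic ribosomal protein genes, a set widened after the values of the shorter list were seen, 64 had a positive log2 change in HG1 against NG1, at a median of 0.19. In HGC against NGC 22 of the 79 were positive, at a median of -0.07, and over dose labels 2 and 3 the figures were 29 and -0.08. Over dose labels 2 and 3, 3 of the 79 were called higher and 1 lower in high glucose. Of the 79, 4 were called higher in HG1 (1.32% of all tested genes were) and none lower in edgeR. Without HG1 replicate 2 none was called and the median was 0.13. In the test of the difference from HGC minus NGC 27 had an unadjusted p under 0.05, all positive, and none passed adjustment in edgeR, while DESeq2 called 3 of them.

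Genes called in HG1 against NG1 with the opposite sign in both other comparisons numbered 7 of 221. Among them were Cd9, the noncoding RNA host gene Snhg6, at 1.02 ± 0.28 (SE, log2; edgeR adjusted p = 0.0468), and the mitochondrial ribosomal gene Mrpl51, at 0.58 ± 0.15 (edgeR adjusted p = 0.0341). These were picked after their values were seen. Snhg6 and Mrpl51 each kept the call in 1 of the 6 fits without an HG1 or NG1 library.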
